A study of Mus musculus with 6 samples.

Results

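The 9 genes described here encode enzymes that carry farnesyl diphosphate through squalene and lanosterol to cholesterol: Fdft1, Sqle, Lss, Cyp51, Msmo1, Nsdhl, Hsd17b7, Sc5d and Dhcr7. Members were all probe sets whose platform annotation lists exactly one of these symbols and no other gene, which gave 18 probe sets of 20380 with a single gene, and 9 genes of 12393. All 9 genes were measured. The arrays hold RNA from mouse embryonic fibroblasts (MEFs), cultured connective tissue cells of embryonic origin that the labels call wt, in 2 groups. The first group was starved for 6 h (3 arrays), and the control cells were kept in Normal Medium (3 arrays). What the starvation medium lacked is not stated, nor are strain, embryo age or passage. Arrays of a group are named biological replicates, and whether each came from a culture of its own is not stated, so p-values measure the spread between these arrays only, which may be technical.

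Cholesterol is made in the endoplasmic reticulum by a long chain of enzymes, and fibroblasts can either make it or take it up in lipoproteins from serum. Most genes of the chain share a control: when membrane sterols are low, the factor SREBP-2 is cut free, enters the nucleus and binds short sterol regulatory elements beside these genes, usually together with the factors NF-Y and Sp1. When sterols or certain oxysterols are plentiful, INSIG proteins hold SREBP-2 and its escort SCAP in the endoplasmic reticulum and the genes are transcribed less. Among the members 4, Sqle, Cyp51, Msmo1 and Sc5d, encode enzymes that use molecular oxygen.

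All 9 genes were lower in starved than in control fibroblasts, each in all 3 starved arrays against all 3 control arrays. The difference, starved minus control on the log2 scale, lay between −4.14 for Msmo1 and −1.15 for Fdft1, with a median of −1.92 against −0.05 for all genes tested. Limma with Benjamini-Hochberg adjustment over all 12393 genes called 9 of 9 members lower (adjusted p of at most 1.70e-06), where it called 22.0% of all genes lower. Groups without overlap, with every starved value below every control value, were found for 9 of 9 members and for 28.4% of all genes. A fall of 1 log2 unit or more, with a call, was found for 9 of 9 members and for 1.74% of all genes. These values come from the brightest probe set of each gene. With the probe sets of a gene averaged, Fdft1 differed by only −0.70. Among all genes ordered by their difference, 3 members were among the 10 largest falls and 8 among the 100 largest, and Fdft1 stood at rank 154. In these bulk samples fewer cells of a type and less RNA per cell cannot be told apart. Spike-in centring, which shifts all genes of an array alike, left all 9 members lower (median −2.34 with the poly-A and −2.10 with the hybridization spike-ins), but changed the share of calls that were higher over all genes, 50.1% in the deposited values, to 8.45% and 21.5%.

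Levels below are log2 array signals made by the authors with RMA, and 1 unit is a doubling of signal. RMA gives all arrays nearly the same signal distribution, so each difference is relative to all genes on the array, and folds of dim probe sets are compressed. Array medians lay between 6.73 and 6.81. Within a group, arrays correlated with each other across genes at 0.997 or more. All 11 fibroblast markers checked were measured, with signals from 4.56 to 14.18 in starved and from 4.95 to 14.06 in control arrays, and 7 were called higher and 2 lower in starved cells, where 22.1% of all genes were called higher; this balance turned to 0 higher and 5 lower when arrays were centred on their poly-A spike-ins, and was 4 higher and 2 lower with the hybridization spike-ins. The mean signal per array of 9 macrophage and blood cell markers was 4.61 to 4.82 in starved and 4.75 to 4.78 in control arrays, that of 5 endothelial markers 3.69 to 3.77 in starved and 3.83 to 3.89 in control arrays, and that of 5 epithelial markers 4.58 to 4.64 in starved and 4.53 to 4.64 in control arrays. On all arrays 4 of the macrophage and blood cell markers, 4 of the endothelial and 1 of the epithelial markers lay below 4.33, the lower quartile of all signals. Of these 19 markers 2 were called higher, Cd68 (0.44) and the dim E-cadherin gene Cdh1 (0.91). Called lower were 4, against 22.0% of all genes: Cd14 (−0.46), Coro1a (−0.24), Pecam1 (−0.27) and Kdr (−0.27). Of these, Cd14 had a mean signal of 7.29 in starved and 7.75 in control arrays. The counts were 1 higher and 17 lower with the poly-A and 1 higher and 11 lower with the hybridization spike-ins. The part of these markers in the results below was not tested.

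Because the members moved in the same direction, the sequence in front of them is shown for 4 of them: Msmo1, which fell most, Lss and Cyp51, and Nsdhl, the member with the smallest fall among those with a RefSeq window. Each is the RefSeq window of 300 bases, 250 before and 50 after the start of transcription, in build GRCm38.p6, written 5′ to 3′ on the strand of the gene. Msmo1 lies at chr8:64733529-64733828 (minus strand), Lss at chr10:76531355-76531654 (plus), Cyp51 at chr5:4104648-4104947 (minus) and Nsdhl at chrX:72918271-72918570 (plus). Capitals mark matches to CCAAT, the core of the NF-Y box, or to TCACNNCA, a loose form of the sterol regulatory element, on either strand. In Msmo1 a match to each runs together with the other.
Msmo1: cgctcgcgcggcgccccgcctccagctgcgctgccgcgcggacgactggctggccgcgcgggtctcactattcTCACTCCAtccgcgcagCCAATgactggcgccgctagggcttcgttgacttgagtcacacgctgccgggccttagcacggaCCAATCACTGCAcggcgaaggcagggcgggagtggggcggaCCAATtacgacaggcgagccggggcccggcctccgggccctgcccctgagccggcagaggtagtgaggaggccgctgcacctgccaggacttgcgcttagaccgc
Lss: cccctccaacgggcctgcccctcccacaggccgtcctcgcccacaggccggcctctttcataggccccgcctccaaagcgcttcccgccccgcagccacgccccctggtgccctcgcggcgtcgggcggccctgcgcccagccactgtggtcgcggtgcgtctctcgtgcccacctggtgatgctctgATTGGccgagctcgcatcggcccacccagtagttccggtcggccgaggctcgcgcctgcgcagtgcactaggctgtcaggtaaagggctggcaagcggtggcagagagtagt
Cyp51: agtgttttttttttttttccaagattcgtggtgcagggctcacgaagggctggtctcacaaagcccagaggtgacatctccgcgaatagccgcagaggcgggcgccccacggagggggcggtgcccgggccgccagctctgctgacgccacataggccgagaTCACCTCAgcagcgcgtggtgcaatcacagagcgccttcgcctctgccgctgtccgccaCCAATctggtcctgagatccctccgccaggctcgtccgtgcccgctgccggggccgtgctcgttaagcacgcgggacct
Nsdhl: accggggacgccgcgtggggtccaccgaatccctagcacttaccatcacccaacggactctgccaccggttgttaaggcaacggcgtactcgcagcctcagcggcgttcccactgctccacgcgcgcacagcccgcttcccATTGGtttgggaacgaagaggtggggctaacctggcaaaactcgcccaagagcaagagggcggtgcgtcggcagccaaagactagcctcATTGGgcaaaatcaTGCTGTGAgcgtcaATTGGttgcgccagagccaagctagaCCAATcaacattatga

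RefSeq windows were present for 7 members (9 windows, since Dhcr7 has 3 starts), and Fdft1 and Sqle had none in the table. CCAAT, searched on both strands, was in at least 1 window of 7 of 7 members and in 37.4% of all 32851 windows (41.1% of genes). The Sp1-type GC box GGGCGG was likewise in 7 of 7 members, and in 35.7% of windows (38.2% of genes). The strict element TCACNCCAC was in 0 of 7 members and in 1.24% of windows. The loose form TCACNNCA, chosen after the member windows had been read, was in 6 of 7 members, all but Lss, and in 13.8% of windows (15.7% of genes). Among 7 genes of the mevalonate and isoprenoid list with a window, 2 held this loose form. CCAAT was in 6 of these 7 genes, the GC box in 5 and the strict element in 1. Member windows had a median GC content of 64.7%, against 52.7% over all windows. A match to these letters is a description of the sequence and no measured binding site.

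**Figure D1:**
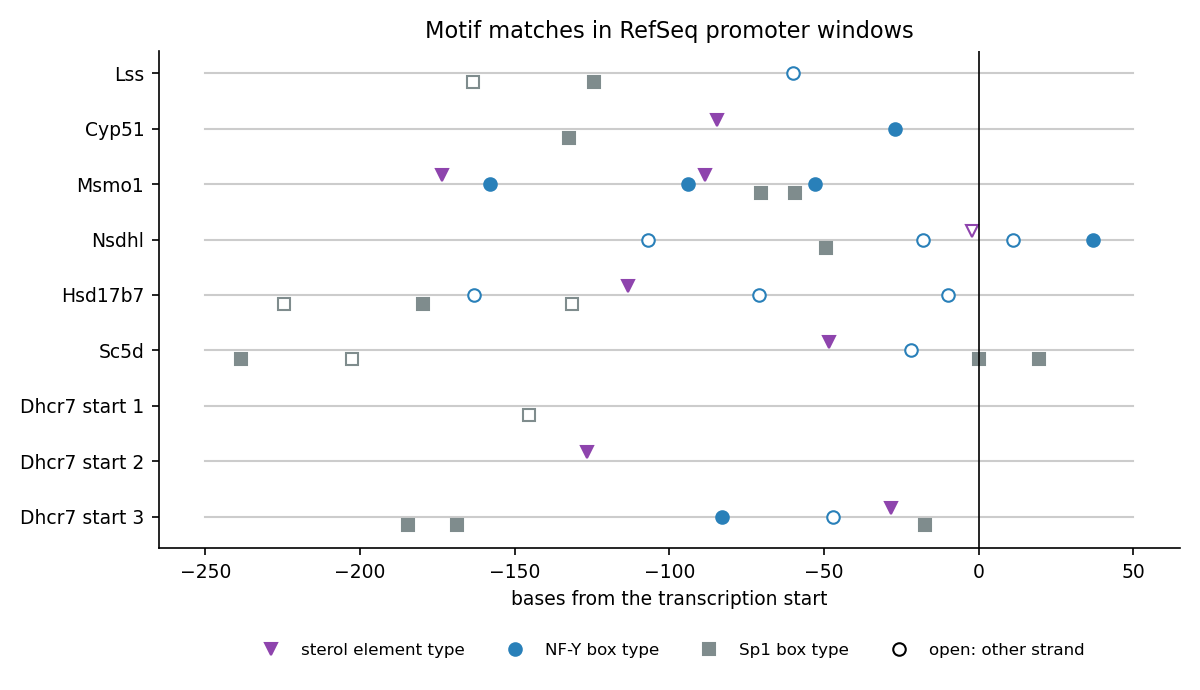
Motif matches along the RefSeq promoter windows of 7 members, with the distance from the transcription start in bases on the horizontal axis and 1 line per start. Triangles stand for the loose sterol element, circles for the NF-Y box and squares for the Sp1 box, and open marks lie on the other strand; every member has at least 1 circle and 1 square, and Lss has no triangle.

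The chain starts with squalene. Fdft1, squalene synthase, joins farnesyl diphosphate molecules head to head and so commits them to sterols. Its signal was 10.14, 10.15 and 10.001 in the starved arrays, against 11.26, 11.25 and 11.24 in the control arrays. The groups were far apart relative to a spread of 0.08 (SD, n = 3) in starved and 0.01 (SD, n = 3) in control cells, although Fdft1 had the smallest fall of the 9 genes (log2 difference −1.15, SE 0.07, limma adjusted p = 1.29e-06). Starved cells kept 44.9% of the control signal.

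Sqle, squalene epoxidase, adds oxygen to squalene and is a rate-limiting enzyme of the pathway. Its signal was 7.99, 7.82 and 7.96 in starved arrays, against 11.49, 11.50 and 11.52 in control arrays. Both groups were tight and the gap between them was the second largest of the members, with 8.37% of the control signal left (−3.58, SE 0.07, limma adjusted p = 1.36e-09). Lss, lanosterol synthase, folds the epoxide into lanosterol, the first sterol. It had 6.76, 6.86 and 6.62 in starved arrays, against 9.25, 9.29 and 9.22 in control arrays. The highest starved array lay 2.36 log2 units under the lowest control array (−2.51, SE 0.08, limma adjusted p = 2.52e-08).

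The next enzymes strip methyl groups from lanosterol. Cyp51, a cytochrome P450, removes the first of them. Its signal was 8.17, 8.24 and 8.30 in starved arrays, against 10.15, 10.12 and 10.18 in control arrays, which left 26.5% of the control signal (−1.92, SE 0.07, limma adjusted p = 5.01e-08). The difference of Cyp51 was the median of the 9 members.

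The paired methyl groups at the fourth carbon are removed by Msmo1, Nsdhl and Hsd17b7 in turn. Msmo1, the sterol oxidase that oxidises each methyl group, had 7.16, 7.13 and 7.29 in starved arrays, against 11.33, 11.30 and 11.37 in control arrays. This was the largest fall of the members, to 5.66% of the control signal, which is 17.7-fold lower (−4.14, SE 0.07, limma adjusted p = 7.67e-10), and among all genes tested 1 gene fell further. Nsdhl, the dehydrogenase that then splits off the carbon, had 8.30, 8.29 and 8.38 in starved arrays, against 9.71, 9.65 and 9.64 in control arrays. Its groups did not overlap (−1.34, SE 0.07, limma adjusted p = 4.58e-07). Hsd17b7, the reductase that restores the alcohol group, had 5.71, 5.61 and 5.63 in starved arrays, against 7.63, 7.70 and 7.56 in control arrays, or 25.3% of the control signal (−1.98, SE 0.07, limma adjusted p = 5.01e-08). Erg28, a scaffold that holds this complex together in yeast, is no member but fell as well, with 8.90, 8.87 and 8.80 in starved arrays against 10.54, 10.57 and 10.48 in control arrays (−1.68, limma adjusted p = 1.09e-07).

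The last members shape the second ring of the sterol. Sc5d, a desaturase, had 8.54, 8.62 and 8.71 in starved arrays, against 10.25, 10.17 and 10.20 in control arrays (−1.58, SE 0.07, limma adjusted p = 2.37e-07). Dhcr7, the reductase that turns the last precursor of one branch into cholesterol, had 5.17, 5.37 and 5.49 in starved arrays, against 7.22, 6.89 and 7.22 in control arrays. It had the widest spread of the members, 0.16 (SD, n = 3) in starved and 0.19 (SD, n = 3) in control cells, and its groups were still separate (−1.77, SE 0.11, limma adjusted p = 1.70e-06).

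**Figure D2:**
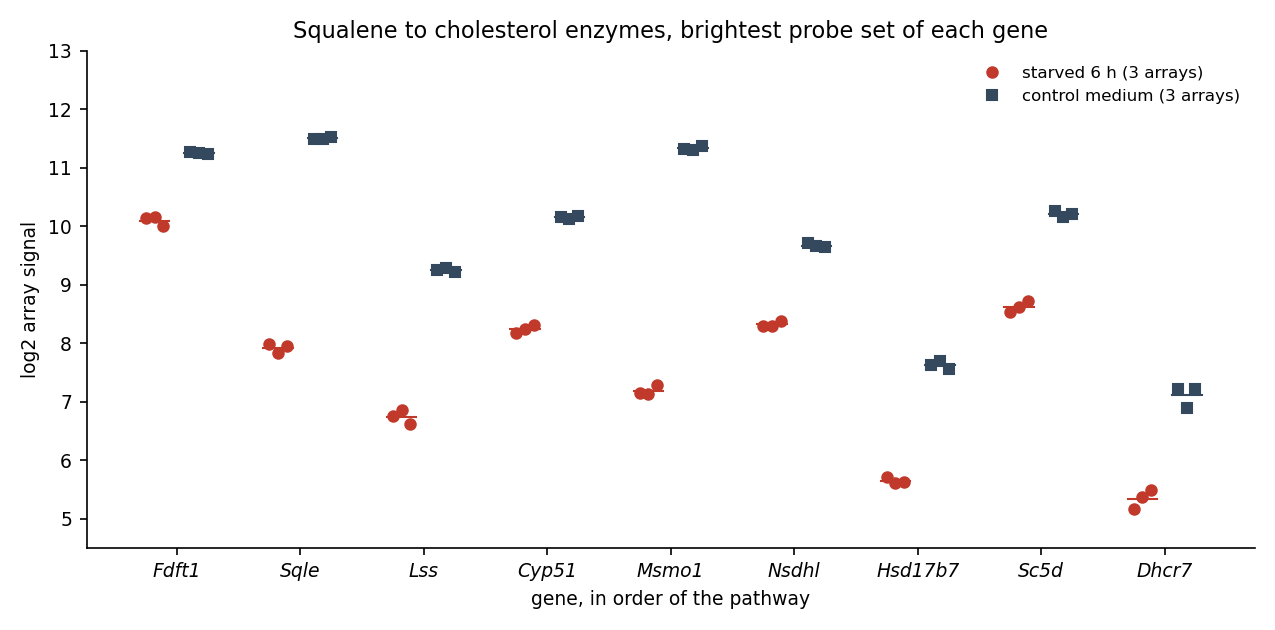
Log2 array signal (vertical axis) of the brightest probe set of each of the 9 genes, in the order of the pathway from left to right. Circles are the 3 starved arrays, squares the 3 control arrays and short lines the group means; the starved values lie below the control values for each gene, with the widest gaps for Msmo1 and Sqle.

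The falls did not follow the order of the steps. From the largest to the smallest, by the brightest probe set of each gene, they ran Msmo1, Sqle, Lss, Hsd17b7, Cyp51, Dhcr7, Sc5d, Nsdhl and Fdft1. In each of the 8 pairs of neighbours in this order, the difference between both genes was taken within each array and compared between the groups with an exact two-sided permutation test, for which 3 arrays against 3 can give no p below 0.1. In 5 pairs the within-array differences did not overlap between the groups, which gives that smallest exact p of 0.1 (adjusted over the 8 pairs, 0.16), so no pair could pass a threshold of 0.05. Msmo1 fell by 0.56 more than Sqle (95% interval 0.42 to 0.71, from the spread of the arrays), Sqle by 1.07 more than Lss (0.76 to 1.39) and Lss by 0.53 more than Hsd17b7 (0.31 to 0.75). Sc5d fell by 0.24 more than Nsdhl (0.15 to 0.33), and the step from Nsdhl to Fdft1 was 0.19, with an interval that includes 0 (−0.03 to 0.41). In the middle of the order the within-array differences overlapped between the groups: Hsd17b7 and Cyp51 differed by 0.07 (−0.17 to 0.30, exact p = 0.5), Cyp51 and Dhcr7 by 0.15 (−0.16 to 0.46, exact p = 0.3) and Dhcr7 and Sc5d by 0.18 (−0.10 to 0.47, exact p = 0.3). Neighbours were chosen by these same differences, which fixes the sign of each step. The intervals are not adjusted for that choice or for the 8 pairs, so they do not establish the order. Each gene is read by its own probe set, and probe sets differ in how strongly they compress a fold, so the order is one of measured differences. The place of Lss rests on its brightest probe set: with the probe sets of a gene averaged, Lss differed by −1.71, less than Hsd17b7 (−2.11), Cyp51 (−1.88) and Dhcr7 (−1.77). Without probe sets ending _s_at, _x_at or _a_at it differed by −1.30, against −1.98 for Hsd17b7 and −1.34 for Nsdhl. The order of Sc5d and Nsdhl also rests on the brightest probe sets, since averaging reversed it (−1.20 for Sc5d and −1.34 for Nsdhl). The 4 oxygen-using enzymes spanned −4.14 to −1.58 and the other 5 members −2.51 to −1.15, and these ranges overlap.

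Of the 9 genes 5 were read by several probe sets, and these show how far the size of a fall depends on the probe. Tested on their own in a fit over all 20380 probe sets, 17 of the 18 member probe sets were lower in starved cells, where 20.5% of all probe sets were, and 0 were higher. The 3 starved values lay below the 3 control values for 17 of them, and for 27.7% of all probe sets. The exception was 1438918_at of Fdft1, with 4.94, 4.85 and 4.996 in starved arrays against 4.84, 5.13 and 4.94 in control arrays (−0.04, limma adjusted p = 0.754). It is a dim probe set, as is 1438919_x_at of the same gene (−0.40, limma adjusted p = 0.0130), whereas the bright 1448130_at (−1.18) and 1438322_x_at (−1.15), the one used above, gave nearly the same difference.

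For Lss the brightest probe set, 1420013_s_at, whose suffix marks probes that can bind transcripts of several genes, gave −2.51, while 1420014_at and 1426913_at gave −1.32 and −1.30. The first of these dimmer sets had 4.02, 4.49 and 4.08 in starved arrays, 2 of them below the lower quartile of all signals, against 5.57, 5.48 and 5.50 in control arrays. For Cyp51 the 3 probe sets gave −2.72 (1422533_at), −1.92 (1450646_at, the brightest) and −1.01 (1422534_at, the dimmest), a range wider than the gap between Cyp51 and 7 of the other 8 members. Hsd17b7 gave −2.24 with its dimmer and −1.98 with its brighter probe set, and Sc5d −0.82 and −1.58. Msmo1, Sqle, Nsdhl and Dhcr7 had 1 probe set each, so their falls have no further reading on these arrays.

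**Figure D3:**
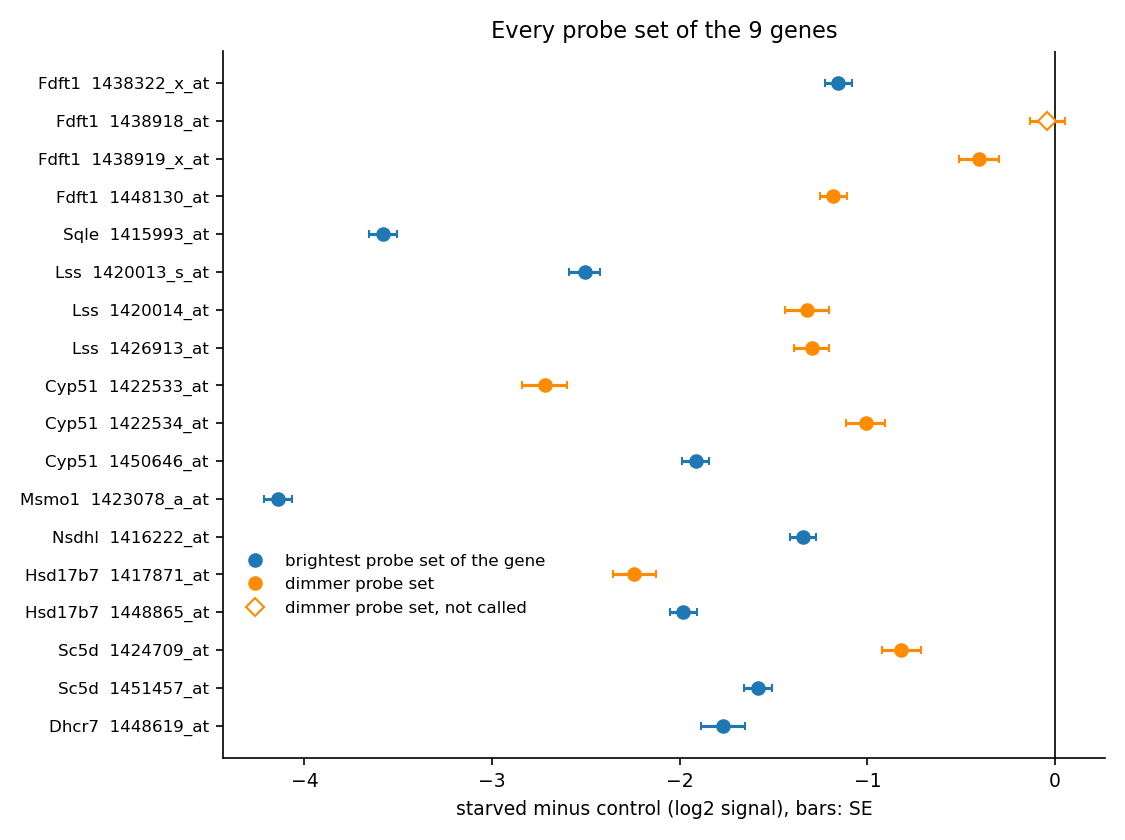
Difference between starved and control cells (starved minus control, log2 signal, horizontal axis) for each of the 18 probe sets of the 9 genes, with the SE as bars. Blue marks are the brightest probe set of a gene and orange ones its dimmer sets; the open diamond near 0, a dim set of Fdft1, is the one that was not called.

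Other enzymes of the same stretch of the pathway were lower too. Of 5 further genes listed for it, 4 were measured and 4 of 4 were called lower, against 22.0% of all genes, with a median of −1.05. Tm7sf2, a sterol reductase that follows Cyp51, had 6.21, 6.54 and 6.49 in starved arrays, against 8.08, 8.05 and 7.87 in control arrays (−1.58, limma adjusted p = 1.69e-06). Lbr, a protein of the nuclear envelope that can carry out the same reduction, had 9.58, 9.60 and 9.74 in starved arrays, against 9.97, 10.01 and 10.13 in control arrays (−0.39, limma adjusted p = 0.00237). Both encode enzymes for the same step, and their groups were separate in either case, but Lbr lost its call when tested against a fold change of 1.2 with limma's treat (adjusted p = 0.259), which left 3 of 4. Ebp, the isomerase of the late steps, fell by 0.52 (limma adjusted p = 0.000286).

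The enzymes that feed the chain, from acetyl-CoA to farnesyl diphosphate, fell as well. Of 7 measured genes of the mevalonate and isoprenoid list 6 were lower, against 22.0% of all genes, and 1 was not called. The list median was −1.94. Idi1, the isomerase of the isoprene units, had the largest fall of them, with 6.93, 6.85 and 6.87 in starved arrays, against 10.64, 10.56 and 10.73 in control arrays (−3.76). Fdps, which makes the farnesyl diphosphate that Fdft1 uses, differed by −2.57, and Fdft1 itself by −1.15. Ggps1, which draws on farnesyl diphosphate for the modification of proteins instead of sterols, did not pass (7.27 ± 0.49 in starved and 7.47 ± 0.11 in control cells, SD, n = 3 each; −0.19, limma adjusted p = 0.453), and 1 of its dimmer probe sets, 1429356_s_at, went the other way (0.47, limma adjusted p = 0.000684). With the poly-A centring Ggps1 was called lower (−0.62, limma adjusted p = 0.00120), which made 7 of 7.

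The oxygen-using enzymes receive electrons from cytochrome b5 or from cytochrome P450 reductase. Of 4 measured genes of this supply 3 were lower and 1 higher, against 22.0% lower and 22.1% higher of all genes. The gene of cytochrome P450 reductase was not among these 4, so the counts cover the cytochrome b5 side only. Cyb5b, a cytochrome b5 of the outer mitochondrial membrane, had 9.67, 9.64 and 9.86 in starved arrays, against 10.93, 10.93 and 10.88 in control arrays (−1.19, limma adjusted p = 1.95e-06). Cyb5r1, a cytochrome b5 reductase, fell by 1.53 (limma adjusted p = 4.82e-07), and Cyb5a, the cytochrome b5 of the endoplasmic reticulum, by 0.29 (limma adjusted p = 0.00439), a call lost with treat (adjusted p = 0.952). Cyb5r3, the main reductase of cytochrome b5, was higher, with 11.88, 11.96 and 11.83 in starved arrays against 11.56, 11.55 and 11.43 in control arrays (0.38, limma adjusted p = 0.00205). That call was lost with the mean of its probe sets (0.16) and when arrays were centred on their poly-A (−0.05) or hybridization spike-ins (0.19). It was also lost with treat (adjusted p = 0.296) and, at −0.12, without probe sets ending _s_at, _x_at or _a_at. Of 4 proteins that bind or turn over enzymes of the chain, Pgrmc1, Pgrmc2, Sec14l2 and Marchf6, 0 passed the limma test, with differences from −0.16 to 0.12; at an unadjusted p under 0.05 the count was also 0. That count depended on the scaling: 4 of 4 were called lower with the poly-A centring, and Pgrmc2 (−0.32) and Sec14l2 (−0.34) with the hybridization centring. The dimmer probe set of Pgrmc2, 1452882_at, was higher (0.59, limma adjusted p = 0.000211), as was the average of its probe sets (0.23, limma adjusted p = 0.0224).

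Among the genes that control the pathway, the transcription factor itself was lower. Srebf2, which encodes SREBP-2, had 8.05, 8.18 and 7.75 in starved arrays, against 9.24, 9.32 and 9.27 in control arrays (−1.28, limma adjusted p = 7.69e-06), and −0.61 with its dimmer probe set. Insig2, which encodes a protein that retains SREBP in the endoplasmic reticulum, was higher, with 9.83, 9.67 and 9.88 in starved arrays against 9.23, 9.20 and 9.21 in control arrays (0.58, limma adjusted p = 0.000164), but at 0.15 and no longer called once arrays were centred on the poly-A spike-ins. Dimmer probe sets of Insig2 gave 0.30 (1417981_at, limma adjusted p = 0.00794) and 0.28 (1417980_a_at, limma adjusted p = 0.0522, not called). Srebf1, Scap, Mbtps1 and Mylip did not pass, with differences of −0.02, 0.00, 0.17 and −0.06, and a dimmer probe set of Mbtps1, 1431386_s_at, was lower (−0.33, limma adjusted p = 0.00589). The list thus held 1 lower, 1 higher and 4 uncalled genes of 6 measured, against 22.0% lower and 22.1% higher of all genes. With the poly-A centring it held 5 lower and 0 higher genes, since Srebf1 (−0.45), Scap (−0.42), Mbtps1 (−0.26) and Mylip (−0.49) were then called lower, and with the hybridization centring 3 lower and 1 higher. Over all 12393 genes, 9321 were called lower with the poly-A and 6102 with the hybridization centring. Mbtps1 was called higher without the dimmest 40% of genes and with limma's trend and robust options.

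Genes of sterol handling, here transport between membranes, release, export and their regulation, went both ways. Of 8 measured 1 was lower, 4 were higher and 3 were not called, and the median was 0.28. Over all genes 22.0% were called lower and 22.1% higher. Stard4, a carrier of sterols between membranes, had 6.89, 6.78 and 7.01 in starved arrays, against 9.26, 9.17 and 9.08 in control arrays (−2.28, limma adjusted p = 5.07e-08), which lies within the range of the 9 enzymes. Abca1, the pump that exports cholesterol, had 9.96, 9.86 and 10.04 in starved arrays, against 8.58, 8.45 and 8.77 in control arrays (1.35, limma adjusted p = 2.90e-06). Npc1, which releases cholesterol from lysosomes, was higher by 0.90 (limma adjusted p = 6.76e-05). Osbp, an exchanger of sterols for phospholipid, was higher by 0.64, and Stard3 by 0.38, but both lost their call under the poly-A centring (0.21 and −0.05). Under that centring Npc2 (−0.26), Abcg1 (−0.57) and Nr1h3 (−0.48) were called lower, so that the list held 4 lower and 2 higher genes, and under the hybridization centring it held 2 lower and 3 higher. Stard3 also lost its call in limma's treat test against a fold change of 1.2, and Npc2 was called higher (0.17) without the dimmest 40% of genes and with limma's trend and robust options. In fatty acid synthesis, the branch that the related factor SREBP-1 mainly drives, 7 of 8 genes were lower, against 22.0% of all genes. The median of these 8 was −0.68, and the largest fall was that of Elovl6 (−2.20).

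**Figure D4:**
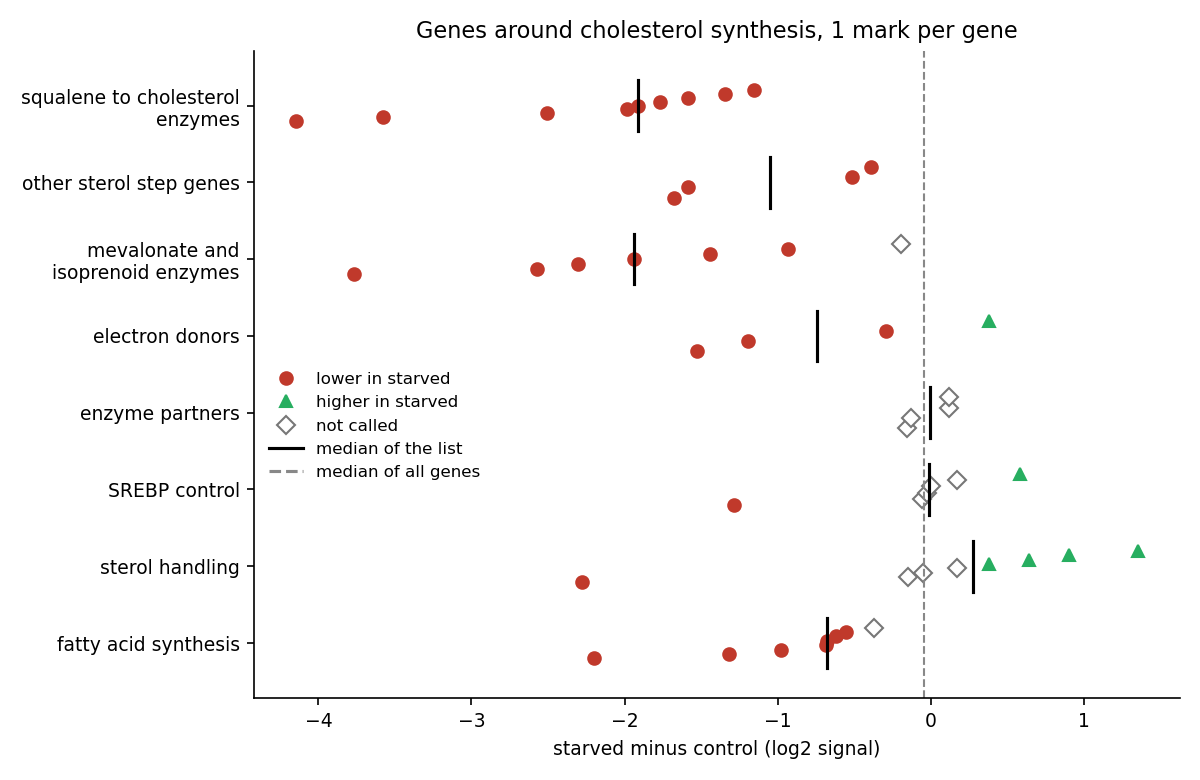
Difference between starved and control cells (starved minus control, log2 signal, horizontal axis) for each measured gene of 8 lists, with the list median as a black line and the median of all 12393 genes as a dashed line. The 9 enzymes lie between −4.14 and −1.15, the mevalonate enzymes overlap them, and the genes of sterol handling lie on both sides of 0.

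Outside the 9 enzymes, the genes whose profile over the 6 arrays was nearest to theirs were found by the root mean square distance between each gene's signal, minus its own control mean, and the median of the members treated the same way. The nearest was Hmgcs1, a synthase early in the mevalonate pathway, at a distance of 0.06 on the log2 scale. It was followed by the splicing factor Srsf2 (0.08), the retinoic acid receptor Rarb (0.10), the endoplasmic reticulum protein Sdf2l1 (0.11) and the adenylate kinase Ak4 (0.13). Among the members themselves the distance ran from 0.02 for Cyp51 to 1.59 for Msmo1. With 6 arrays in 2 groups this measure mostly ranks genes by how close their fall is to −1.92.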

How the data were processed

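RNA of 6 arrays was analysed. The authors deposited a table of 1 log2 signal per probe set and array, and affy and RMA are named in the submitters' processing notes without versions. Arrays have no read depth, and their number limits the precision. Names came from the platform annotation, which gave 1 gene for 20380 of 22690 probe sets, several for 691 and none for 1555, beside 64 control sets. Only those with 1 gene were tested. A gene took its brightest probe set over all arrays, which left 12393 genes, with no filter on dim ones. The 6 arrays were fitted with limma 3.58.1 (R 4.3.3; lmFit, then eBayes) without covariates. P-values are two-sided, adjusted by Benjamini and Hochberg's method across every gene or probe set tested, with a threshold of 0.05. The steps were tested on simulated data. Neighbouring members were compared with exact permutation tests. Promoter windows came from RefSeq (GRCm38.p6), matched by symbol. Figures were drawn with matplotlib 3.10.9 in Python 3.11.15. Named were all members and their probe sets, genes of the related lists, and the 5 most similar named genes by profile. The members, lists and alternatives were chosen with earlier results of these data known. Listed genes without a probe set of their own were not analysed here.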

Additional observations from a re-analysis of the deposited data

How the results depend on the processing

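In 18 alternative settings, each of the 9 members that could be tested stayed lower in starved cells and past its threshold (161 of 161 values). Leaving out probe sets ending _s_at, _x_at or _a_at left 8 members, without Msmo1. The settings not described further here were the further quantile normalization, centring on array medians, limma's array weights, its trend and robust options and leaving out the dimmest 40% of genes. The median difference of the members was −1.92. It was −1.77 when all probe sets of a gene were averaged, −1.68 without the probe sets of those suffixes, −2.34 with each array centred on its poly-A spike-ins and −2.10 with centring on the hybridization spike-ins; with each array left out in turn it lay between −1.95 and −1.88. The centrings subtract a single value per array from every gene and set the median of all genes at −0.47 and −0.24, against −0.05 in the deposited values, so relative to all genes the falls stay as they were. The background counts changed more. Of all genes 2728 were lower and 2735 higher (50.1% of calls higher). With the poly-A spike-ins these counts were 9321 and 860 (8.45% higher), and with the hybridization spike-ins 6102 and 1673 (21.5% higher). At an adjusted p below 0.01 they were 1782 and 2149, and against a fold change of 1.2 with limma's treat 939 and 1314. With 1 array left out they lay between 2186 and 2735 for lower and between 2355 and 2753 for higher genes. Without control replicate 1, 16 instead of 17 member probe sets were lower, since 1438919_x_at of Fdft1 did not pass (limma adjusted p = 0.0523). Replicate numbers were shared by both groups, but arrays of the same number did not deviate together (correlations of −0.02 to 0.002 across genes). With the replicate number as a block the 9 members stayed lower and 2605 genes were lower and 2669 higher. The number of arrays limits how finely the members can be ordered.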
